A study of Mus musculus with 6 samples.

Results

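The genes described here are the cytochrome P450 genes of families 1 to 4, the cytosolic glutathione S-transferase (GST) genes and the aldehyde dehydrogenase (ALDH) genes measured in sorted alveolar type II cells of the mouse lung. Members were the genes with 10 or more counts summed over the 6 libraries whose symbol ends in a family number, a letter and a number (as in Cyp2b10 or Aldh1a7) or, for GST, a class letter and a digit (Gstt1), leaving out the club cell gene Cyp2f2. Genes named otherwise, such as Aldh2, Gstk1 and pseudogenes, are therefore not among them. They numbered 58 of the 111 matching symbols and of the 23337 genes in the tables, namely 22 P450, 18 GST and 18 ALDH genes. The mutant group (genotype SpC-CreER/Dlk1flox/ROSA-Tomato) and the wild-type group (SpC-CreER/ROSA-Tomato) had 3 libraries each. Both groups carried an inducible Cre recombinase driven by the surfactant protein C promoter, which is active in type II cells, together with a Tomato reporter, and the mutant group also carried a floxed Dlk1. All lungs had been injured with Pseudomonas aeruginosa (PA), and the time given is 10 days after injury. Tomato-positive cells were sorted. The protocol text also speaks of 8 days in culture, and it is not clear whether that applies to the sequenced cells. Ages are not given, and no label ties a library to an animal. The p-values reflect only how far these samples differ among themselves, which may be technical.

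P450 enzymes are heme proteins of the endoplasmic reticulum that insert an oxygen atom into drugs, pollutants, steroids and fatty acids. GSTs join glutathione to reactive products of such oxidation, and ALDHs turn aldehydes, from lipid peroxidation, retinal or amino acid breakdown, into acids. In the lung, the foreign-compound P450 enzymes are best known from club cells of the airways and from type II cells, while most P450 genes of these families are liver, kidney or gut genes.

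Several members have close copies, which bears on what a count per symbol can mean. How reads shared between copies were counted is not given in the labels or notes used here. The first 90 coding bases of 3 pairs are shown, from GENCODE M21 transcripts on GRCm38, because the values of these genes depend on whether reads of the pair could be told apart. Capitals mark the bases at which the pair differs.
Aldh1a1: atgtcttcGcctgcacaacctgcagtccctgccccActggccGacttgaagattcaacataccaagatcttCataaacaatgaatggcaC
Aldh1a7: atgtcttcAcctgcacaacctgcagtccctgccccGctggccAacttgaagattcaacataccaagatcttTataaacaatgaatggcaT
Gstp1: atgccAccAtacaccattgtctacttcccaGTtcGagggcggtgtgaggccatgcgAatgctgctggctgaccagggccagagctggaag
Gstp2: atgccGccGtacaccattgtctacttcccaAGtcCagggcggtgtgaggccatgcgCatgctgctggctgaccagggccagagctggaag
Cyp2a4: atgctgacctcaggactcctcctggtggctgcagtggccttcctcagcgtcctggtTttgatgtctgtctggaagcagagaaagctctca
Cyp2a5: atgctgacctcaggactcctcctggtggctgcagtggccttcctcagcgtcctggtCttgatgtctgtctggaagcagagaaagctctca
Aldh1a1 and Aldh1a7 were 91.6% identical over 1506 aligned coding bases, and 6.5% of the stretches of 50 bases in the Aldh1a1 transcript also occurred in Aldh1a7. Gstp1 and Gstp2 were 98.1% identical, with 62.3% of the 50-base stretches of Gstp1 shared. Cyp2a4 and Cyp2a5 were 98.5% identical, with 36.1% of the stretches of Cyp2a4 shared, and Gsta1 and Gsta2 were 97.9% identical, with 44.6% shared. Cyp4a32 shared 34.8% of its stretches with Cyp4a10, Gstm1 15.4% with Gstm3 and Cyp2b10 8.2% with Cyp2b13. Values of Gstp1, Gstp2, Cyp2a4, Cyp2a5, Gsta1, Gsta2 and Cyp4a32 are therefore uncertain as single-gene values. For Gstm1 and Cyp2b10 the same holds to a lesser degree. Among the 111 matching symbols, 36 of the 58 members shared no 50-base stretch with another, and 14 shared more than 5% with their closest copy.

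The libraries held 22511461 to 30695994 counts, so that 3 counts, the limit that a count of 0 allows, stood at 0.0977 to 0.133 CPM. These limits cover counting error only. Values per library are CPM, the gene's counts scaled to a common library total of 1000000. Dlk1 itself had 0 to 2 counts in every library and does not check the labels. The type II marker Sftpc stood at 45223 to 54195 CPM in all 6, and the 15 type II markers summed to 144922 CPM in mutant 1, with 156190 to 183064 CPM in the rest. Mutant 1 stood apart by markers of other cells. Club and goblet markers summed to 9036 CPM there and 603 to 1003 CPM elsewhere, neutrophil markers to 103 against 0.963 to 5.86 CPM and endothelial markers to 139.9 against 6.16 to 12.2 CPM. The 12 liver markers summed to 6.03 CPM in mutant 1, within the range of 4.398 to 9.15 CPM elsewhere. Wild type 2 had 185 CPM of Xist, expressed in female cells, against at most 2.93 CPM in the others, and 2.88 CPM of the Y-linked Ddx3y against 49.8 to 78.2 CPM. In bulk RNA, fewer cells of a type and less RNA per cell cannot be told apart.

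The members were divided into 3 sets by their levels, which is a description and not a test. A type II set of 35 members (11 P450, 11 GST and 13 ALDH genes) had at least 1 CPM in each of the 5 libraries other than mutant 1. Members high in mutant 1 alone, as defined next, were left out of it. The name stands for this rule only, and a gene expressed mainly in other cells can meet it. The club cell gene Cyp2f2, left out of the members, stood at 147 to 219 CPM in those 5 libraries. A set of 8 members was high in mutant 1 alone, at 5 or more times the level of each other library, with any library under 3 counts set to 3 counts. The other 15 were low. The type II set summed to 2127, 2308 and 2018 CPM across mutants 1, 2 and 3, against 2466, 2184 and 2084 CPM across wild types 1, 2 and 3. The set high in mutant 1 summed to 345 CPM in that library against 16.1 to 49.5 CPM in the others. The type II sum overlapped between the groups. The other sum is high in mutant 1 because its genes were chosen for that.

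Cyp4v3 and Cyp2b10 carried most of the CPM of the P450 genes in the type II set. Cyp4v3, a fatty acid hydroxylase, stood at 208, 272 and 242 CPM across mutants 1, 2 and 3, against 297, 269.8 and 232 CPM across wild types 1, 2 and 3. Cyp2b10, the P450 best known for induction by phenobarbital through the receptor CAR, stood at 134, 199 and 160.2 CPM across mutants 1, 2 and 3, against 169.6, 109 and 164 CPM across wild types 1, 2 and 3. In both genes the groups overlapped, and wild type 2 was the lowest library for Cyp2b10. Per kilobase of transcript, over the 5 libraries other than mutant 1, Cyp2b10 averaged 88.0 ± 18.0 CPM per kb and Cyp4v3 68.9 ± 6.87 CPM per kb (SD, n = 5), which did not differ beyond their spread. The P450 genes that followed were far lower. Cyp2j6, whose enzyme makes epoxides of arachidonic acid, stood at 24.0, 30.7 and 27.5 CPM across the mutants against 35.1, 30.4 and 29.4 CPM across the wild types, with mutant 1 lowest and wild type 1 highest. Cyp2d22 stood at 10.2, 11.1 and 11.9 CPM across the mutants against 16.3, 12.04 and 12.1 CPM across the wild types, with wild type 1 again highest. Cyp4f16, of the fatty acid and eicosanoid hydroxylases, stood at 16.9, 8.64 and 12.3 CPM across the mutants against 12.1, 11.01 and 11.4 CPM across the wild types, with mutant 1 highest and mutant 2 lowest. The next P450 gene per length was Cyp2j6, which averaged 8.49 ± 0.777 CPM per kb, below every library of the first pair. Cyp4f13, of the same hydroxylase group as Cyp4f16, averaged 8.03 ± 2.85 CPM per kb and did not differ from Cyp2j6 beyond its spread. Cyp4f16 averaged 4.95 ± 0.653, its relative Cyp4f17 2.86 ± 0.376, Cyp2d22 4.59 ± 0.747 and Cyp3a13, of the drug- and steroid-oxidizing CYP3A family, 3.99 ± 2.05 CPM per kb.

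Theta, alpha, mu and zeta classes led the GST genes. Gstt1, a theta class enzyme, stood at 144, 148 and 158 CPM across mutants 1, 2 and 3, against 175, 150.05 and 139 CPM across wild types 1, 2 and 3. It led the family per length, at 148 ± 12.9 CPM per kb (SD, n = 5). Gsta4, whose enzyme conjugates the lipid peroxidation product hydroxynonenal, stood at 97.9, 82.1 and 89.4 CPM across mutants 1, 2 and 3, against 92.4, 87.8 and 94.6 CPM across wild types 1, 2 and 3, among the narrowest ranges of all members. Gstm1, a mu class enzyme, stood at 103, 75.8 and 49.1 CPM across the mutants against 105, 71.7 and 77.1 CPM across the wild types, with mutant 3 lowest. Per length Gstm1 and Gsta4 averaged 91.5 ± 24.0 and 91.4 ± 4.92 CPM per kb and did not differ beyond their spread. Gstz1, which acts in tyrosine breakdown, and Gstt3 followed at 62.0 ± 2.73 and 62.0 ± 9.12 CPM per kb. Gstp1, of the pi class, stood at 37.5, 25.0 and 31.7 CPM across the mutants against 43.6, 34.3 and 35.7 CPM across the wild types and its copy Gstp2 at 1.02 to 2.80 CPM. Gstz1 itself was even across libraries, at 93.4, 106 and 95.9 CPM across the mutants against 107, 102 and 102 CPM across the wild types. Gsta3, of the alpha class, stood at 41.7, 23.7 and 32.0 CPM across the mutants against 38.2, 23.6 and 37.6 CPM across the wild types, so that mutant 2 and wild type 2 were the lowest. Gstt2 stood at 35.6, 27.8 and 32.6 CPM across the mutants against 35.0, 29.6 and 29.4 CPM across the wild types. Gstm2 stood at 26.7, 27.6 and 20.4 CPM across the mutants against 29.6, 22.2 and 24.1 CPM across the wild types, and in both genes the groups overlapped. Gstm4 ranged from 7.04 to 11.8 CPM over the 6 libraries.

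The ALDH members were led by Aldh1a7, a close relative of the retinal dehydrogenase Aldh1a1, at 175, 196 and 192 CPM across mutants 1, 2 and 3, against 157, 195 and 202 CPM across wild types 1, 2 and 3. Aldh3a2, the fatty aldehyde dehydrogenase, stood at 169, 177 and 159 CPM across the mutants against 155, 192 and 157 CPM across the wild types. Both had narrow ranges that overlapped between the groups. Aldh2, the mitochondrial enzyme that clears acetaldehyde and no member by its symbol, ranged from 613 to 719.9 CPM over the 6 libraries. Per length Aldh1a7 averaged 91.1 ± 8.67 and Aldh3a2 58.1 ± 5.47 CPM per kb (SD, n = 5), with all 5 libraries of Aldh1a7 above all 5 of Aldh3a2. The mitochondrial enzyme of valine breakdown Aldh6a1, the folate enzyme Aldh1l1, the lysine breakdown enzyme Aldh7a1 and the carnitine synthesis enzyme Aldh9a1 averaged 40.7 ± 5.70, 40.6 ± 16.6, 40.3 ± 3.15 and 36.2 ± 5.50 CPM per kb and did not differ beyond their spread. Aldh6a1 stood at 115, 169 and 128 CPM across the mutants against 141, 135 and 118 CPM across the wild types, with mutant 2 highest. Aldh7a1 stood at 72.7, 74.4 and 74.0 CPM across the mutants against 84.6, 82.2 and 70.3 CPM across the wild types, and the 3 mutants differed by less than the wild types. Aldh4a1, of proline breakdown, stood at 94.5, 107 and 93.7 CPM across the mutants against 115, 87.1 and 90.7 CPM across the wild types, with wild type 1 highest and wild type 2 lowest, and averaged 29.2 ± 3.48 CPM per kb. Aldh5a1, of the breakdown of the transmitter GABA, was the steadiest of the named members at 13.0, 12.1 and 12.4 CPM across the mutants against 11.9, 13.3 and 12.8 CPM across the wild types. Aldh16a1 stood at 31.8, 20.0 and 22.6 CPM across the mutants against 22.8, 29.4 and 23.8 CPM across the wild types, and wild type 2 came close to mutant 1. Aldh3b1, an enzyme for lipid aldehydes, ranged from 16.0 to 35.4 CPM, and mutant 1 was highest for both Aldh16a1 and Aldh3b1.

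**Figure D1:**
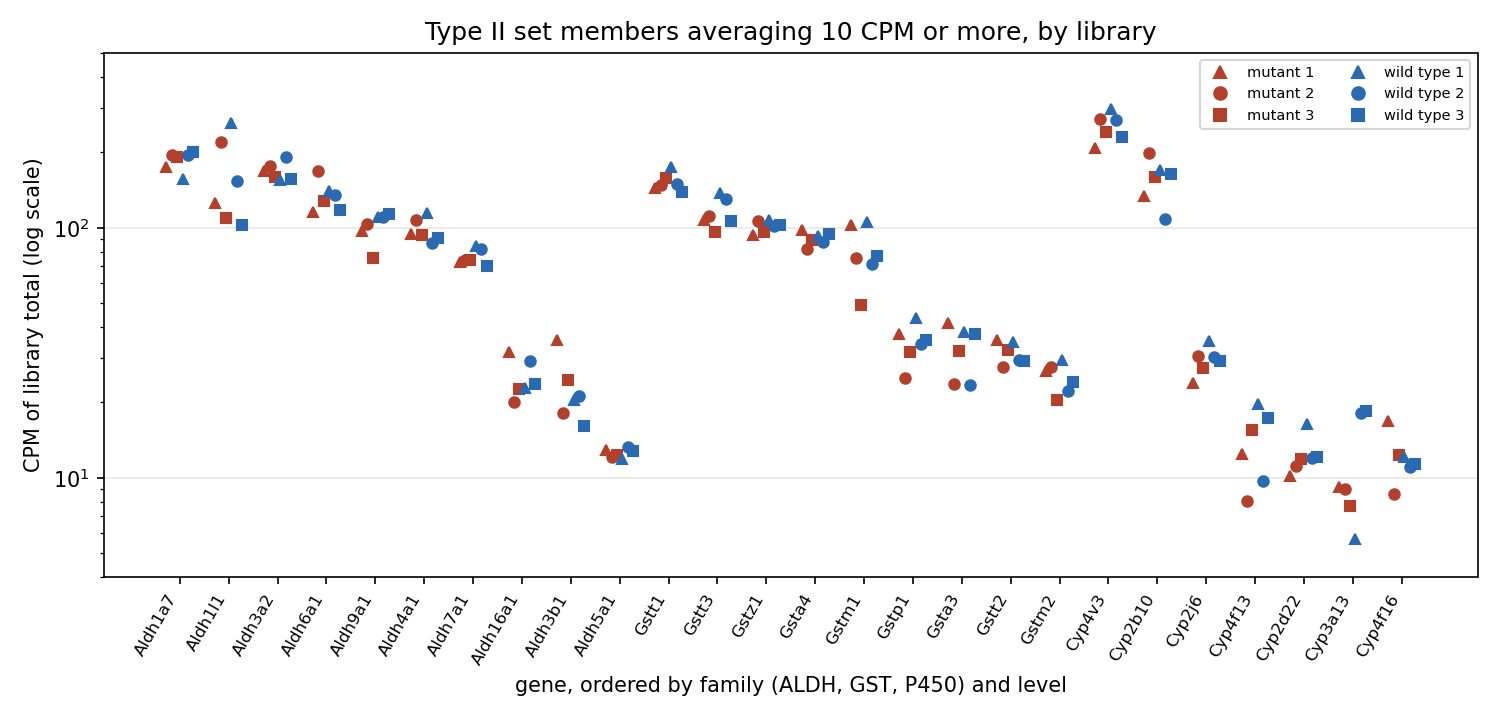
CPM of the library total (log axis) of the 26 type II set members that averaged 10 CPM or more outside mutant 1, each point 1 library, red for mutant and blue for wild type. For most genes the libraries lie close together and the colours overlap. Wider ranges include Aldh1l1, from 103 CPM in wild type 3 to 262 CPM in wild type 1. Cyp3a13 runs from 5.69 CPM in wild type 1 to 18.4 CPM in wild type 3.

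Of the 35 type II set members, 24 varied by less than 2-fold over the 5 libraries other than mutant 1. Of the other 11, Cyp2c44 and Gstp2 did not overlap between the groups, and the remaining 9 varied between libraries with overlapping groups. Aldh1l1, which breaks down formyltetrahydrofolate in the cytosol, stood at 125, 219 and 109 CPM across the mutants against 262, 155 and 103 CPM across the wild types, highest in wild type 1 and mutant 2. Its mitochondrial relative Aldh1l2 stood at 3.03, 1.52 and 2.47 CPM across the mutants against 5.06, 3.36 and 2.45 CPM across the wild types, also highest in wild type 1 but lowest in mutant 2. Aldh3a1, an aldehyde dehydrogenase abundant in cornea, stood at 18.7, 5.86 and 1.34 CPM across the mutants against 12.2, 8.72 and 1.77 CPM across the wild types. Mutant 3 and wild type 3 were thus the lowest libraries for Aldh3a1, and mutant 1 and wild type 1 the highest. Cyp3a13 stood at 9.15, 9.02 and 7.69 CPM across the mutants against 5.69, 18.2 and 18.4 CPM across the wild types, with wild types 2 and 3 above the other 4 libraries. Cyp1b1, a target of the aryl hydrocarbon receptor, stood at 1.07 CPM in wild type 1 and between 3.08 and 3.93 CPM in the other 5. Cyp4f13 was lowest in mutant 2 and wild type 2, at 8.09 and 9.67 CPM, against 12.4 to 19.7 CPM elsewhere. Aldh18a1, of proline synthesis, ran from 6.62 CPM in mutant 2 to 14.0 CPM in mutant 1.

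Wild type 1 held the highest CPM of 16 of the 35 type II set members (45.7%), whereas it was highest for 15.5% of the 12899 genes tested across the libraries. Mutant 1 was highest for 9 of them (25.7%, against 37.2% of all tested genes) and mutant 3 for 0 (10.1% of all tested genes). On the TMM scale, which corrects for differences in composition, wild type 1 was highest for 19 of 35 members, against 21.6% of all tested genes. The type II set leaves out the members high in mutant 1 alone, whereas all tested genes include such genes. The shares of the set and of all tested genes are therefore not on equal terms, and their differences can follow in part from that choice. These are descriptions of 1 library and carry no test. Wild type 1 also had the highest sum of the 15 type II markers, 183064 CPM. The part of the type II marker sum in the members' levels was not tested.

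The 8 members high in mutant 1 alone were Aldh1a1, Cyp2s1, Gsto1, Cyp2a5, Aldh1a2, Cyp4f18, Cyp4f15 and Aldh1b1, or 13.8% of the members. Over all 15513 genes with 10 or more counts, 1196 (7.71%) met the same 5-fold rule, and nothing particular to these families is read from the difference. Aldh1a1, which makes retinoic acid from retinal, stood at 201, 12.3 and 10.6 CPM across mutants 1, 2 and 3, against 30.8, 11.5 and 7.06 CPM across wild types 1, 2 and 3. Its copy Aldh1a7 did not share this pattern, since mutant 1 held 175 CPM of Aldh1a7, below 4 of the other 5 libraries. For Aldh1a1 mutant 1 thus stood far above all other libraries, and for Aldh1a7 it lay within their range. Cyp2s1, a P450 of airway epithelium, stood at 63.3, 2.82 and 3.18 CPM across the mutants against 8.13, 6.63 and 3.49 CPM across the wild types. Gsto1, an omega class enzyme that acts as a thiol transferase, stood at 38.7, 3.16 and 3.07 CPM across the mutants against 7.33, 3.04 and 4.65 CPM across the wild types. Cyp2a5, which oxidizes coumarin and nicotine, stood at 23.4, 0.928 and 0.671 CPM across the mutants against 2.31, 0.395 and 0.481 CPM across the wild types, and its copy Cyp2a4 at 0 to 0.228 CPM. In each of these 4 genes wild type 1 was the second highest library. Just outside the 5-fold rule was Cyp4b1, a lung P450 that activates furan toxins, at 36.0 CPM in mutant 1 against 5.19 to 11.7 CPM elsewhere, 3.08 times the highest of these. Just inside it was Gsto1, at 5.28 times.

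The club and goblet markers ranked the libraries alike at the top. Their sum was 9036, 708 and 609.7 CPM across mutants 1, 2 and 3, against 1003, 823 and 603 CPM across wild types 1, 2 and 3, so wild type 1 was second here too. Of the 12 markers, 10 were highest in mutant 1 and 8 were 5-fold or more above each other library, while Muc5ac was at 0 in mutant 2 and in all 3 wild types. Cyp2f2, the club cell P450 left out of the members, stood at 966, 147 and 159 CPM across the mutants against 219, 159 and 168 CPM across the wild types. This order was not particular to club and goblet markers. Macrophage and monocyte markers summed to 816 CPM in mutant 1 and 124 CPM in wild type 1, the second highest library. Neutrophil, lymphocyte, erythroid, ciliated and fibroblast sums had the same top order. In the endothelial, mesothelial and smooth muscle sums another library than wild type 1 was second. The part of any of these cells in the levels of Aldh1a1, Cyp2s1, Gsto1, Cyp2a5 and Cyp4b1 was not tested.

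**Figure D2:**
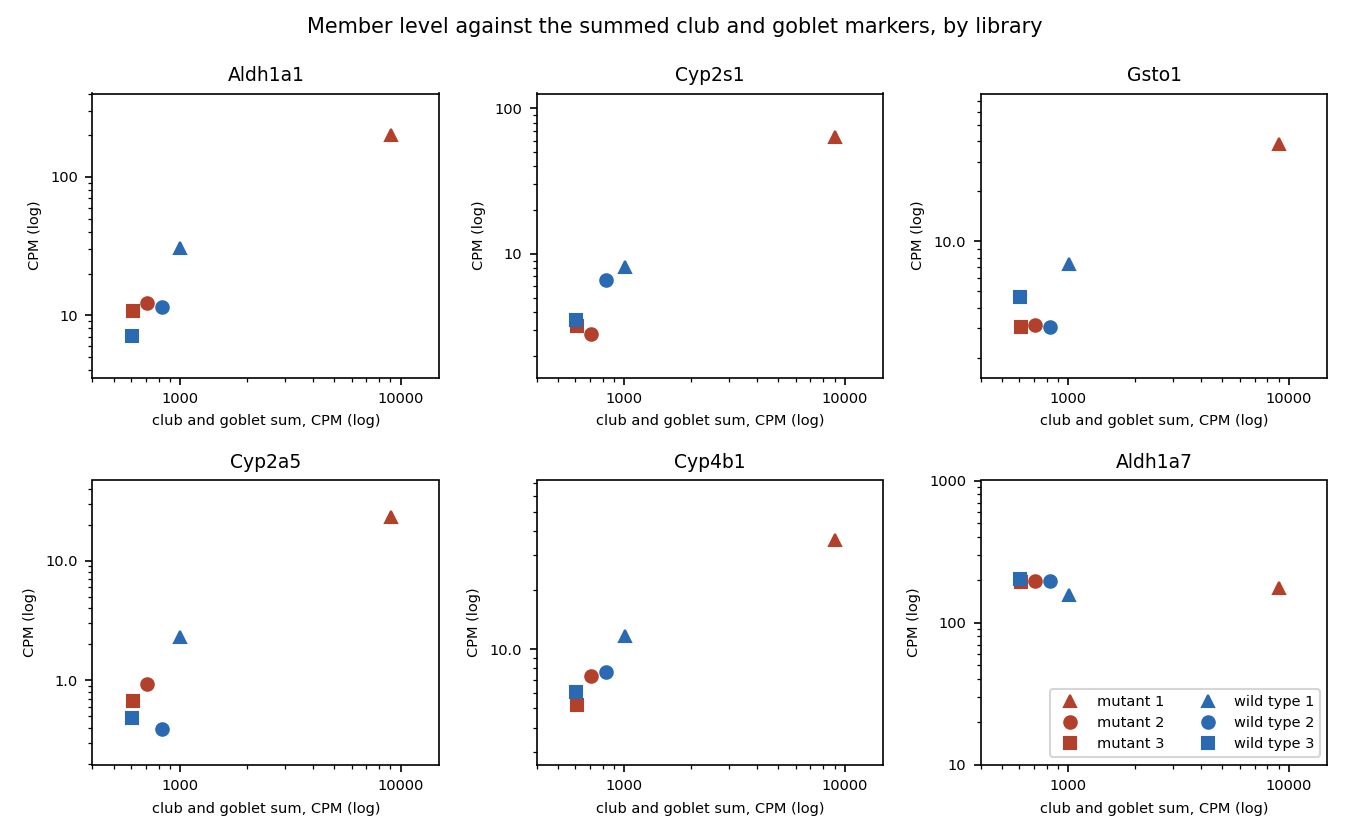
CPM of 6 members against the summed CPM of 12 club and goblet markers, both on log axes, each point 1 library. For Aldh1a1, Cyp2s1, Gsto1, Cyp2a5 and Cyp4b1, mutant 1 is highest on both axes and wild type 1 second, whereas Aldh1a7 stays between 157 and 202 CPM.

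The other 4 members of the set were near 0 outside mutant 1. Aldh1a2, the retinal dehydrogenase of mesothelial and mesenchymal cells, stood at 7.46 CPM (229 counts) in mutant 1 and at 0 to 0.953 CPM elsewhere, with 0 counts in mutant 2. Mesothelial markers summed to 142 CPM in mutant 1, 44.6 and 55.0 CPM in the other mutants and 47.8 to 68.4 CPM in the wild types, with 7 of 8 highest in mutant 1, Calb2 at 0 in every library and Wt1 at 0 in mutant 2 and all wild types. Fibroblast markers summed to 463 CPM in mutant 1, 122 to 138 CPM in the other mutants and 128 to 177 CPM in the wild types, with 10 of 10 highest in mutant 1 and Lum and Tcf21 at 0 in all others. Outside mutant 1 a single gene made up most of each sum. Gsn stood at 118 to 173 CPM there (240 CPM in mutant 1), and each other fibroblast marker at 2.01 CPM or less. Krt19 stood at 41.4 to 63.3 CPM there (79.7 CPM in mutant 1), and each other mesothelial marker at 4.52 CPM or less. Cyp4f18, which degrades leukotriene B in neutrophils, had 225 counts in mutant 1 and 0 to 14 elsewhere. All 9 measured neutrophil markers were highest in mutant 1, and their sum was 0.963 to 5.86 CPM in the other libraries, with Camp at 0 in all 5. Cyp4f15 had 105 counts in mutant 1 and 0 to 4 elsewhere, and the mitochondrial Aldh1b1 had 23 counts in mutant 1 and 0 or 1 elsewhere. The part of other cells in these 4 genes was not tested. Liver markers were no higher in mutant 1 than elsewhere, and Ttr, Fgb, Serpina1a and Cps1 were at 0 in all 6 libraries.

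**Figure D3:**
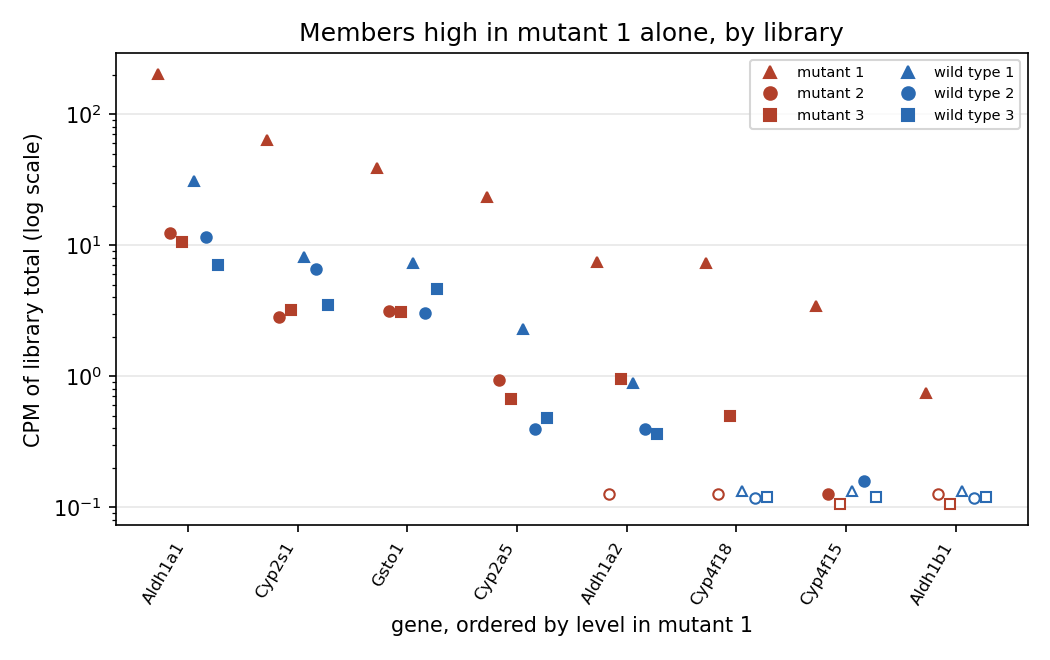
CPM of the library total (log axis) of the 8 members high in mutant 1 alone, each point 1 library, open where the library had under 3 counts and then drawn at the level of 3 counts. The red triangle of mutant 1 lies above all other libraries in each gene, from 201 CPM for Aldh1a1 to 0.749 CPM for Aldh1b1.

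The 15 low members were at most 2.73 CPM in any library. They included Cyp2r1, the vitamin D hydroxylase, at 0.267 to 1.18 CPM, and Aldh1a3, a retinal dehydrogenase, at 0 to 0.358 CPM. The other low members were the P450 genes Cyp2a4, Cyp2j9, Cyp2t4, Cyp2u1, Cyp4a32 and Cyp4f39, the GST genes Gsta1, Gsta2, Gstm5, Gstm6, Gstm7 and Gsto2, and Aldh3b2. The 53 symbols left out had at most 8 counts in all, and 36 of them, P450 genes without exception, had 0 counts in every library. Just under the minimum were Cyp1a1, the main target of the aryl hydrocarbon receptor, with 8 counts, and Cyp2g1 with 7, and just inside it was Cyp2a4 with 10. Cyp2e1, the ethanol-inducible enzyme abundant in liver, had 1 count over all 6 libraries.

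Mutant and wild-type libraries were then compared, which asks what a floxed Dlk1 in type II cells changes after injury, and none of the members was called. Counts were tested with edgeR's quasi-likelihood test, and 44 of the 58 members passed its filter on low counts. These were all 35 of the type II set, 5 of the 8 high in mutant 1 and 4 of the 15 low members. At a Benjamini-Hochberg adjusted p under 5%, 0 members were higher (0% of the 12899 genes tested) and 0 were lower (0%). At an unadjusted p under 0.05, 2 members were called in either direction (6.58% of all tested genes), and DESeq2 called 0 members (0.299% of genes). DESeq2 gave no p for 3 of the 44, namely Aldh1a1, Cyp2a5 and Cyp2s1. With the replicate number as a block, edgeR gave 4 of 44 members an unadjusted p under 0.05 (6.72% of all tested genes), and 0 passed. For 4 of the 44 members all mutants lay on one side of all wild types (11.7% of all tested genes), a share near the background.

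Aldh9a1, of carnitine synthesis, had the smallest p of all members, at 97.0, 104 and 75.6 CPM across the mutants against 111, 110.2 and 113 CPM across the wild types. All 3 mutants lay below all 3 wild types, with mutant 3 lowest. Its log2 fold change was -0.33 ± 0.12 (SE), with an edgeR adjusted p of 0.737 and a mean of 92.1 ± 14.7 CPM over the mutants against 111 ± 1.66 CPM over the wild types (SD, n = 3 each). Gstt3 stood at 107, 112 and 96.5 CPM across the mutants against 137, 131 and 106 CPM across the wild types, with mutant 2 above wild type 3, and had a log2 fold change of -0.30 ± 0.12 (edgeR adjusted p = 0.737). Gstp2 stood at 1.47, 1.56 and 1.02 CPM across the mutants against 2.80, 2.05 and 2.01 CPM across the wild types, with all mutants lowest. It had a log2 fold change of -0.81 ± 0.37 and Gstp1, with which it can share reads, -0.33 ± 0.15. Cyp2c44, an epoxygenase, stood at 1.47, 1.43 and 1.09 CPM across the mutants against 1.87, 2.33 and 2.17 CPM across the wild types, without overlap, and had -0.72 ± 0.34 (edgeR adjusted p = 0.739). Cyp2d22 was the other member without overlap, at -0.34 ± 0.18. Beyond the members high in mutant 1 alone, the smallest p on the higher side was that of Aldh3b1, at 0.37 ± 0.22 (edgeR adjusted p = 0.749), with 35.4, 18.2 and 24.5 CPM across the mutants against 20.4, 21.3 and 16.0 CPM across the wild types, and so mutant 2 below wild types 1 and 2. Without mutant 1 it was 0.13.

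The precision differed between members. For the steadiest genes the 95% intervals of the log2 fold change were narrow, at -0.26 to 0.09 for Gsta4, -0.35 to 0.09 for Gstz1, -0.30 to 0.20 for Aldh3a2, -0.34 to 0.19 for Aldh5a1 and -0.31 to 0.26 for Aldh1a7. Cyp4v3 (-0.55 to 0.16) and Cyp2b10 (-0.41 to 0.64) were measured less tightly. For Aldh1l1 the interval ran from -1.17 to 0.69 and for Aldh3a1 from -2.10 to 2.29. Cyp3a13 had -0.76 ± 0.40 (-1.71 to 0.19), with all mutants below wild types 2 and 3 and above wild type 1.

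The 5 tested members high in mutant 1 were chosen by that library, so their large positive log2 fold changes are a description and follow from the choice. Each was negative when mutant 1 was left out. Aldh1a1 moved from 2.07 ± 1.16 to -0.54, Cyp2a5 from 2.85 ± 1.43 to -0.42, Aldh1a2 from 2.24 ± 1.47 to -0.19, Cyp2s1 from 1.82 ± 1.14 to -1.03 and Gsto1 from 1.47 ± 0.97 to -0.70. Cyp4b1 moved from 0.84 ± 0.68 to -0.45 and Aldh3a1 from 0.10 ± 0.93 to -1.09. With all libraries the edgeR adjusted p of these 7 genes was 0.739 to 0.986.

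**Figure D4:**
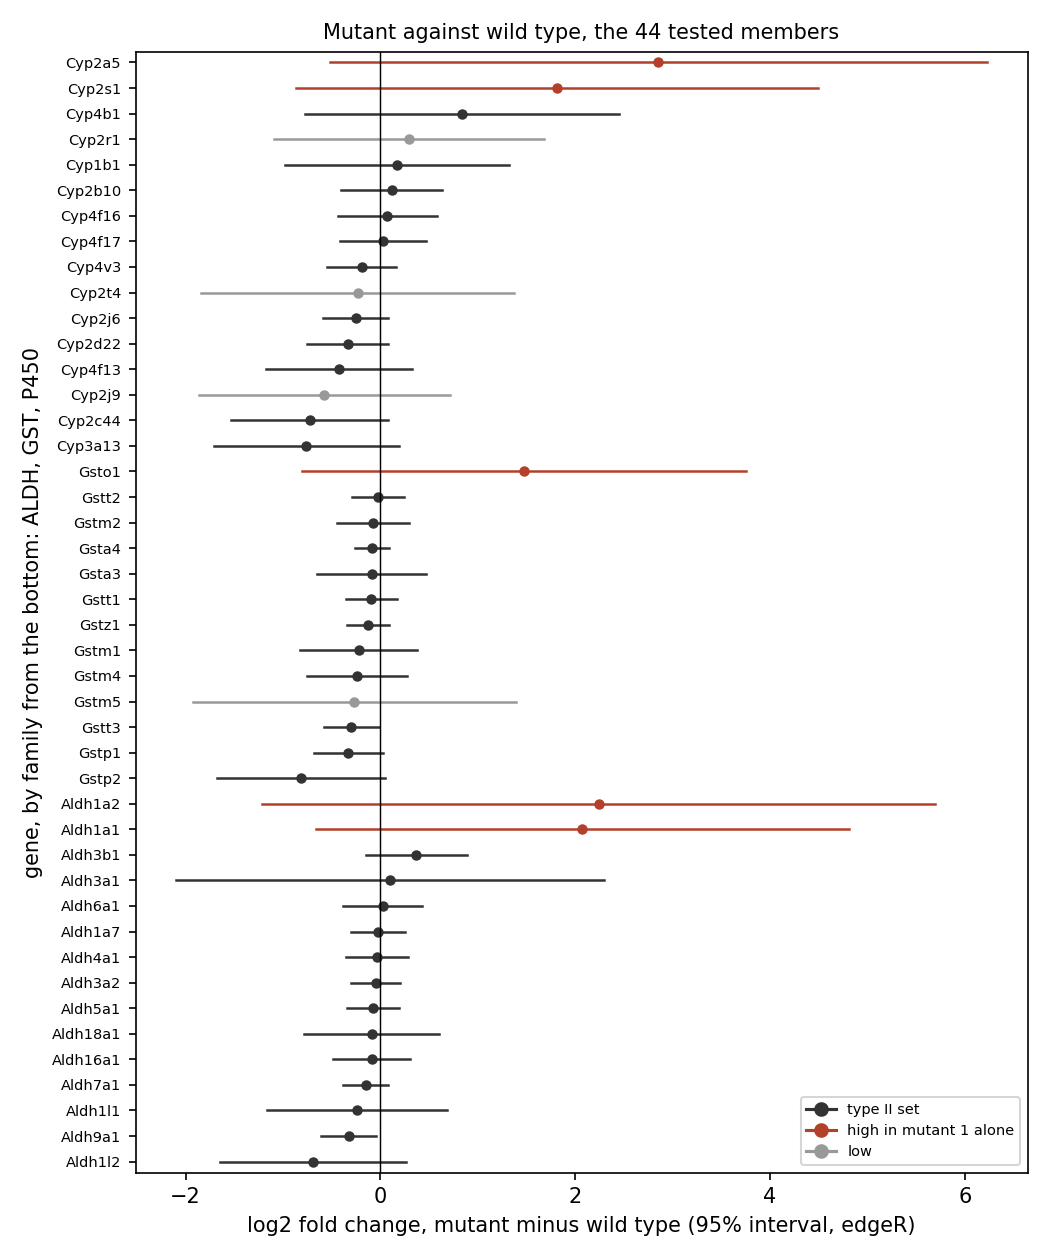
Log2 fold change of mutant over wild type with its 95% interval for the 44 tested members, by family, from edgeR. Most type II set members lie near 0, with Aldh9a1 and Gstt3 the members whose intervals end below 0, and the members high in mutant 1 alone have intervals several log2 units wide.

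As a set, 30 of the 44 tested members had a negative log2 fold change (positive for 51.1% of all tested genes), with a median of -0.09 where that of all genes was 0.005. In the type II set 27 of 35 were negative (median -0.09), among the GST genes 12 of 13 (median -0.13), among the ALDH genes 10 of 15 (median -0.05) and among the P450 genes 8 of 16 (median -0.08). No test was made over these lists. The size of the lean depended on which libraries were used, and for the ALDH and P450 genes its direction did too. The medians of all members, of the type II set and of the GST genes were below 0 in every alternative. For all members they ran from -0.23 to -0.07. Without wild type 1, the members were 20 positive and 27 negative, the GST genes 5 and 9 and the ALDH genes 9 and 7, so that the ALDH median turned to 0.09. It also turned, to 0.02, without wild type 2. The P450 median turned to 0.16 without wild type 3 (10 positive and 7 negative) and to 0.03 with the replicate number as a block. It was 0.08 without the filter on low counts, where 22 P450 genes in place of 16 were tested. Of the GST genes 10 of 15 were negative without mutant 2. Without mutant 1, 36 of 44 members were negative (median -0.18), as were 13 of 13 GST genes.

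Among genes that work with these enzymes, in 5 lists chosen by function, 0 passed in edgeR. Over all tested genes 48.9% had a negative log2 fold change, and 3.69% were higher and 2.89% lower at an unadjusted p under 0.05, which the counts here stand beside. Of 15 tested P450 partners and sensors of foreign compounds, 11 had a negative log2 fold change (median -0.11), and 1 had an unadjusted p under 0.05. That was the heme-binding partner Pgrmc2, at 35.4, 32.3 and 29.3 CPM across the mutants against 37.0, 34.9 and 37.4 CPM across the wild types. Next came the nuclear receptors Rxrb (log2 fold change -0.18 ± 0.10) and Ppara (-0.22 ± 0.14). Of 26 tested genes of glutathione supply and other glutathione enzymes, 15 were negative (median -0.07), and 4 had an unadjusted p under 0.05, all lower. The last enzyme of glutathione synthesis, Gss, stood at 23.4, 20.5 and 19.7 CPM across the mutants against 23.4, 24.0 and 24.6 CPM across the wild types, with mutant 1 just above wild type 1, and Ggt5, a gamma-glutamyl cleavage enzyme, at 41.1, 42.0 and 41.0 CPM across the mutants against 80.8, 53.9 and 45.3 CPM across the wild types, without overlap. Mgst2, a microsomal glutathione transferase, had -0.47 ± 0.19, also with every mutant below every wild type. Of 10 tested retinoid genes 7 were negative (median -0.10), 2 of them at an unadjusted p under 0.05, led by the retinol dehydrogenase Rdh11, which did not overlap between the groups, at 28.7, 32.7 and 31.6 CPM across the mutants against 40.8, 39.2 and 38.8 CPM across the wild types. Dhrs3, which reduces retinal to retinol, had -0.35 ± 0.13 with overlapping groups. Of 35 other enzymes of drug and aldehyde metabolism 24 were negative (median -0.04), with 1 higher and 2 lower at an unadjusted p under 0.05. The paraoxonase Pon1 had the smallest p, at 30.0, 37.6 and 26.8 CPM across the mutants against 149, 69.6 and 69.2 CPM across the wild types, with a log2 fold change of -1.66 ± 0.33 (edgeR adjusted p = 0.737, DESeq2 adjusted p = 0.000108). Wild type 1 was highest for Pon1 and Ggt5 as well. The sulfotransferase Sult2b1 had -0.43 ± 0.17. Of 6 tested P450 genes outside the symbol pattern 3 were negative, among them Cyp20a1, which had every mutant below every wild type and was the 1 gene of the list with an unadjusted p under 0.05 (-0.50 ± 0.16) and Cyp39a1 (-0.22 ± 0.13).

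Promoters were searched for the core letters bound by the aryl hydrocarbon receptor, GCGTG (XRE core), and by Nrf2, TGACNNNGC (ARE). Each protein is a known regulator of some P450 or GST genes. Both strands of the 300 bases from 250 before to 50 after each RefSeq start on GRCm38.p6 were read, and 47 of the 58 members had an entry. GCGTG occurred in 18 of these (38.3%, against 35.2% of 27025 genes) and TGACNNNGC in 8 (17%, against 14%). The motifs overlapped in Gstm5. Matches in the P450 gene with the highest mean per length, in a GST gene and in the member with the smallest p are shown, with the match in capitals. Aldh9a1 also had 2 matches to GCGTG, on the opposite strand, 40 and 12 bases before the start. The first Cyp2b10 match lies on the opposite strand, so its capitals are the reverse complement of the core.
Cyp2b10 XRE core, chr7:25897547-25897571, + strand: tatggctcctCACGCtctggacaat
Cyp2b10 XRE core, chr7:25897639-25897663, + strand: tcctgctggaGCGTGgagtgaagtc
Gsta3 ARE, chr1:21240454-21240482, + strand: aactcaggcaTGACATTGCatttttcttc
Aldh9a1 ARE, chr1:167349894-167349922, + strand: ttaattatgcTGACTAGGCccaagctact
The share of members with a match was thus close to that of all genes for both motifs. A match describes letters only, and binding was not measured.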

How the data were processed

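RNA was sequenced from 3 mutant and 3 wild-type samples (TruSeq mRNA libraries). The values are read counts per gene symbol as deposited by the authors, 1 file per sample. The submitters' processing notes name mm9, CASAVA and DESeq2, with no role or version. The counting tool, its use of strand and its handling of reads shared between copies are given by no label or note used, and no mm9 coordinates were used. All else was computed here. CPM are counts scaled to a library total of 1000000. Group means carry the SD over 3 libraries, and means per kilobase the SD over the 5 libraries other than mutant 1. Log2 fold changes (mutant minus wild type), SE, 95% intervals and adjusted p came from edgeR 4.0.16 (R 4.3.3; TMM scaling, filterByExpr, quasi-likelihood F test, Benjamini-Hochberg over 12899 genes). With this edgeR setup, simulated counts were tested first. Alternatives were DESeq2 1.42.0, its size factors, no filter on low counts, a replicate block, other thresholds for the set high in mutant 1, leaving out each library, and leaving out mutant 1 and wild type 2 together. Same-numbered libraries deviated together (correlations 0.312, 0.211 and 0.169, against -0.246 to 0.0686 for unlike numbers). This pattern was seen from the data alone, and its cause was not tested. The numbers were taken as pairs only in the replicate block. The main fit, which gave the fold changes, intervals and adjusted p printed without another setting, did not use them. Chi-square values per degree of freedom between replicates of a group were 18.4 to 76.7, so no library was a copy of another in its group. Mutant libraries were not compared with wild-type libraries in this way. Lengths and coding sequences came from GENCODE M21 (longest coding transcript), promoters from RefSeq on GRCm38.p6. Named with values per library were type II set members averaging 10 CPM or more outside mutant 1 or with a range of 2-fold or more there, up to 12 members high in mutant 1 alone, and the 5 members with the smallest p in each direction. Of each partner list the 3 genes with the smallest p were named, except for items not reported here. Members and lists were chosen with earlier results of these data known.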

Additional observations from a re-analysis of the deposited data

How the results depend on the processing

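No member passed the 5% threshold under edgeR in any alternative, so no call could be lost. Sizes and signs rest on 3 libraries per group, and the 5-fold set rests on mutant 1 alone. Over all genes, edgeR called 0, against 19 higher and 19 lower with DESeq2, and 0 to 1 higher when single libraries were left out (1 without wild type 3). With the replicate block the lowest edgeR adjusted p of a member was 0.679, 4 members against 2 had an unadjusted p under 0.05 (6.72% of all genes in that fit), no call changed, and the sign turned for Aldh3a1 (-0.15) and the low member Cyp2t4 (0.10). Without the filter on low counts, 23 of 58 members had a positive log2 fold change, against 14 of 44 with it. That fit adds genes with low counts, and the sign turned for 0 of the named genes. The medians were then -0.0822 for 18 P450 partners, 1.10 for 17 P450 genes outside the pattern and -0.0141 for 30 glutathione genes. With the filter they were -0.11 for 15, 0.43 for 6 and -0.07 for 26 genes. With mutant 1 and wild type 2 both out, 7 members were positive, the members' median was -0.23 and that of the P450 genes outside the pattern -0.26. In that setting log2 fold changes turned to -0.74 (Aldh1a1), -0.38 (Aldh1a2), 0.10 (Aldh1a7), -0.97 (Aldh3a1), 0.0936 (Aldh3a2), -0.81 (Cyp2a5), -0.96 (Cyp2s1), -0.52 (Cyp4b1), -0.18 (Cyp4f16), -0.96 (Gsto1), -0.02 (Cyp4f17) and -0.35 (Cyp2f2). Leaving out each library in turn gave 8 to 20 positive members of the 44 to 48 then tested, and medians of -0.14 to -0.0653 for the P450 partners, -0.18 to 1.06 for the P450 genes outside the pattern, -0.13 to -0.025 for the glutathione genes and -0.12 to -0.00408 for the other drug-metabolizing enzymes. For the named genes whose sign turned, the log2 fold change then ran from -0.27 to 0.0218 (Aldh16a1), -0.32 to 0.14 (Aldh18a1), -0.54 to 2.89 (Aldh1a1), -0.19 to 2.82 (Aldh1a2), -0.12 to 0.0547 (Aldh1a7), -0.65 to 0.20 (Aldh1l1), -1.09 to 0.63 (Aldh3a1), -0.11 to 0.0499 (Aldh3a2), -0.13 to 0.10 (Aldh4a1), -0.19 to 0.16 (Aldh6a1), -0.22 to 0.47 (Cyp1b1), -0.42 to 4.12 (Cyp2a5), -0.0767 to 0.27 (Cyp2b10), -0.27 to 1.51 (Cyp2f2), -1.03 to 2.33 (Cyp2s1), -0.45 to 1.25 (Cyp4b1), -0.15 to 0.26 (Cyp4f16), -0.29 to 0.0694 (Gsta3), -0.45 to 0.00224 (Gstm1), -0.19 to 0.0589 (Gstm2), -0.70 to 1.95 (Gsto1), -0.17 to 0.0082 (Gstt1) and -0.0787 to 0.0665 (Gstt2). A 10-fold in place of a 5-fold threshold left 3 members in the set high in mutant 1 in place of 8 (3.69% of all genes), since it asks for more, and a 3-fold threshold gave 9 (11%). The cause of the other shifts was not tested. Depth limits the low members, of which 11 of 15 could not be tested at these counts.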
